A study of Mus musculus with 8 samples.

Results

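A set of 10 genes of the sarcomere's cross-linking and scaffolding apparatus is described here across 8 mouse hearts: the nebulin relatives Nrap, Neb and Nebl, the Z-disc genes Actn2, Ldb3, Myoz2, Csrp3 and Tcap, and the titin and M-band genes Ttn and Myom1. They were taken by symbol, matched to Entrez IDs, and make up 10 of the 27179 genes in the deposited count table. All 10 passed the filter on low counts, which kept 15086 genes. The members were chosen by function with measured values in view, their log2 fold changes between the genotypes in these same 8 hearts, so that difference is given for the members as a description and no p-value is printed for it. Hearts were collected at E10.5, in midgestation, from embryos labelled wild type (Kat6a+/+, here Kat6a WT, 5 hearts) or lacking both alleles of Kat6a (Kat6a-/-, here Kat6a KO, 3 hearts). The product of Kat6a (Moz) acetylates histones. Strain, litter and which exons the allele lacks remain unstated in the labels.

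The Z-disc is the border between neighbouring sarcomeres, where actin filaments of opposite polarity are anchored and cross-linked by alpha-actinin. Titin runs from the Z-disc, where the cap protein encoded by Tcap binds its end, to the M-band in the middle of the sarcomere, where myomesin ties it to the thick filaments. Proteins of the nebulin family carry repeats that bind actin: nebulin is the long form of skeletal muscle, nebulette the short form of the heart, and N-RAP is found where myofibrils form and at the junctions that join heart muscle cells.

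Libraries held between 19911803 and 34539787 counts, and the 10 genes took 0.464% to 0.540% of the counts of a heart. The count of Kat6a itself did not separate the groups (log2 fold change -0.08 ± 0.05 SE, adjusted p = 0.529 by edgeR). That count sums all exons, so it is no check of the genotype labels. Kat6a WT replicates 4 and 5 had Xist RNA and the other 6 hearts had at most 0.372 CPM of it, so all Kat6a KO hearts stand against a mixed Kat6a WT group. Nothing in the labels says whether hearts of a group came from separate litters, and the spread between them is all that the tests measure. In whole hearts, fewer cells of a type and less RNA per cell cannot be told apart.

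Start-site windows from RefSeq (build GRCm38.p6; 250 bases before to 50 after an annotated start) were at hand for 8 of the 10 genes, in 13 windows; Neb and Tcap have no entry. The 250 bases before the start are shown for 5 genes whose window lies at the outer end of the gene, 3 that rose in Kat6a KO (Nrap, Myoz2, Csrp3) and 2 that did not pass the test (Actn2, Ttn). Capitals mark a match to the MEF2 site, the A/T-rich sequence read by the muscle factors of that name.
Nrap, chr19:56390039-56390288, minus strand: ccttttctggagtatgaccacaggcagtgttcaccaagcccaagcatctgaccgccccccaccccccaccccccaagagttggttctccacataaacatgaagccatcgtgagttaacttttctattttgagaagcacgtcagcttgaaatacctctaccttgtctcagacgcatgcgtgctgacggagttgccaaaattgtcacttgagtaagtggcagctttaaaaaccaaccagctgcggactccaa
Myoz2, chr3:123034988-123035237, minus strand: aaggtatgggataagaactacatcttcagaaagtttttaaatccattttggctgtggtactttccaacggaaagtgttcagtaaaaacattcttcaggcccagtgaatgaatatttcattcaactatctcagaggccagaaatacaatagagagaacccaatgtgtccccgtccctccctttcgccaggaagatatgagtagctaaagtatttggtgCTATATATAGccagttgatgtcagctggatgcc
Csrp3, chr7:48848052-48848301, minus strand: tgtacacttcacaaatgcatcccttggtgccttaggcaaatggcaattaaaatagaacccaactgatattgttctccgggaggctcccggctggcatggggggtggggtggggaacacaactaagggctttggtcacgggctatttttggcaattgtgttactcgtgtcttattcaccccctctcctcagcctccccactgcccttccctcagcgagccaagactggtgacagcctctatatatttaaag
Actn2, chr13:12340733-12340982, minus strand: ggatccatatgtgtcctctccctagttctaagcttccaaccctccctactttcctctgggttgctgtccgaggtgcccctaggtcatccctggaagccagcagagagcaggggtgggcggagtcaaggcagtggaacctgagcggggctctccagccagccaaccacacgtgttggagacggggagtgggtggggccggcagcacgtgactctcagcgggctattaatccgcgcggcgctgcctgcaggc
Ttn, chr2:76982548-76982797, minus strand: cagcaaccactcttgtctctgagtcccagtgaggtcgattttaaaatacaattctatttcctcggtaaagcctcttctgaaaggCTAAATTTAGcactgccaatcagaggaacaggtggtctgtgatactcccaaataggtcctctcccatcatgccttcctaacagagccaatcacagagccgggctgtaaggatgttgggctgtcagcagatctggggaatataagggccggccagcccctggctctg

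A MEF2 site was present in 2 of the 13 windows, those of Myoz2 and Ttn, and in 0.557% of all 32851 windows of the same length. In Myoz2 it spans bases -33 to -24 from the start, and in Ttn bases -166 to -157. The CArG box, to which serum response factor binds, was present in 4 of the 13 windows, from the 3 genes Ldb3, Myom1 and Nebl, and in 1.63% of all windows. Both Ldb3 windows overlap and hold the same box. The stretches of 30 bases around these boxes follow, with the box in capitals, to set them beside the windows above; the 3 genes are among those that did not pass the test.
Ldb3, chr14:34588697-34588726, minus strand: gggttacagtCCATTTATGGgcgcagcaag
Myom1, chr17:71019448-71019477, plus strand: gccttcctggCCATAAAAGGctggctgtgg
Nebl, chr2:17462999-17463028, minus strand: gctcccatctCCTAAATTGGctggaaatgc

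Both strands were searched in every case. The TATA box in its exact letters (TATAAA) was in 0 of the 13 windows and in 13.6% of all, and variants of it were not searched. The E-box (CANNTG), read by basic helix-loop-helix factors, was in 10 of 13 windows and in 72.3% of all. The GATA motif (AGATAA) was in 3 of 13 windows and 11.2% of all, the M-CAT motif (CATTCC) of TEAD factors in 2 of 13 and 14.7% of all, and the NK2 element (AAGTG) in 4 of 13 and 46.4% of all. Both Ldb3 windows share sequence and some other genes have several windows, so these shares are a description, and a match is not evidence of binding.

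In wild-type hearts the 10 genes differed widely in level when counts were divided by gene length. In CPM (counts scaled to a common library size) per kilobase, Csrp3 stood highest at 487 ± 21.2 (SD, n = 5), followed by Actn2 at 435 ± 21.6. Csrp3 encodes the muscle LIM protein of the Z-disc and Actn2 the alpha-actinin that cross-links thin filaments; their ranges overlapped. Myom1 (178 ± 3.59), which encodes the M-band protein myomesin, stood apart from both neighbours in the order. Nebl (105 ± 7.71) and Ldb3 (93.6 ± 4.29), the gene of the alpha-actinin partner ZASP, overlapped each other, and Tcap followed at 70.1 ± 5.53 without overlap. Myoz2 was at 21.3 ± 2.80. Ttn (10.3 ± 0.838) and Nrap (8.22 ± 0.871) overlapped, and Neb was far below all others at 0.114 ± 0.0136. The length of a gene is the single figure per gene in the deposited table, 104320 bases for Ttn, and any listed exon not used at this stage lowers the level per kilobase.

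**Figure D1:**
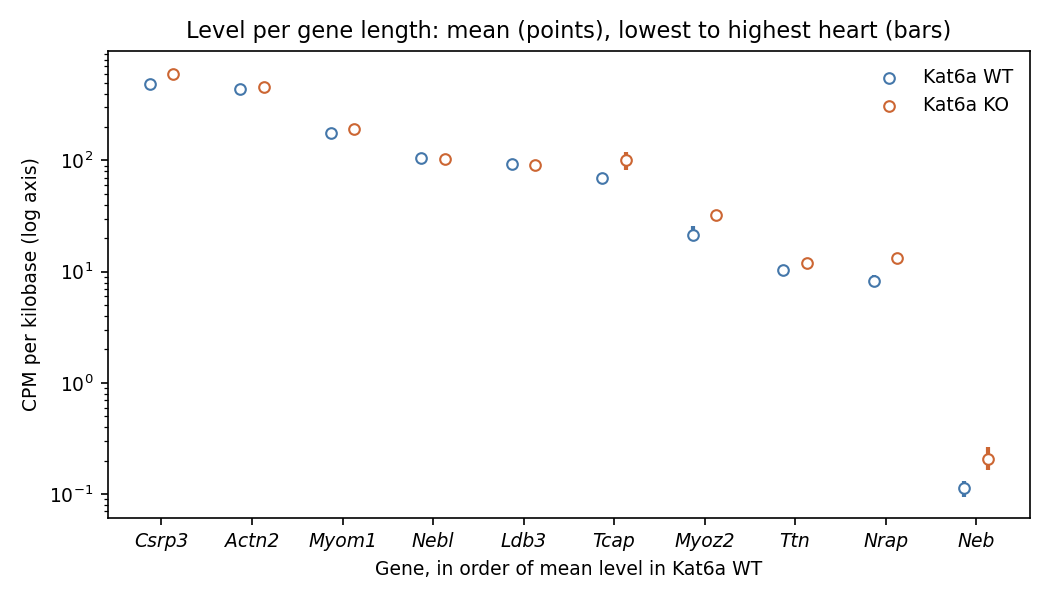
Level of each gene in CPM per kilobase on a log axis, with circles for the mean of 5 Kat6a WT or 3 Kat6a KO hearts and bars from the lowest to the highest heart (hidden where shorter than the circle). Csrp3 and Actn2 stand highest and Neb lowest in both groups, and Nrap lies below Ttn in Kat6a WT (8.22 against 10.3) but above it in Kat6a KO (13.2 against 11.97).

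The order was nearly the same in Kat6a KO hearts. Tcap moved from below Ldb3 (70.1 against 93.6) to above it (101.9 ± 18.5 against 90.97 ± 2.23 CPM per kilobase, SD, n = 3), and Nrap from below Ttn to above it. In Kat6a KO hearts the ranges of Tcap and Ldb3 overlapped, and so did those of Nrap and Ttn.

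Across the Kat6a WT hearts the genes also differed in steadiness. Myom1 varied least, with a coefficient of variation of 2.01%, and the standard deviation of its log2 CPM was below that of all but 1.88% of the genes tested. Myoz2 varied most, with 13.2%, followed by Neb with 11.9% and Nrap with 10.6%. Among Kat6a KO hearts Neb (25.0%) and Tcap (18.1%) had the largest coefficients, and Ldb3 (2.45%) the smallest.

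Of the 10 genes, 5 rose in Kat6a KO hearts, 0 fell and 5 did not pass an adjusted p of 0.05 in the edgeR fit over all genes. Over all 15086 genes 1.44% were called higher and 1.23% lower; the members were chosen with these values known, so nothing is read from that contrast. The 5 that rose were Nrap, Neb, Myoz2, Csrp3 and Tcap. In the same 5 genes every Kat6a KO value lay above every Kat6a WT value, which held for 4.77% of all genes tested; no member had all Kat6a KO values below, as 4.81% of all genes did. The median log2 fold change of the 10 genes was 0.26, beside -0.00015 over all genes tested, and 8 of the 10 values were above 0 (49.9% of all genes), or 6 when libraries were scaled on cardiomyocyte markers.

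**Figure D2:**
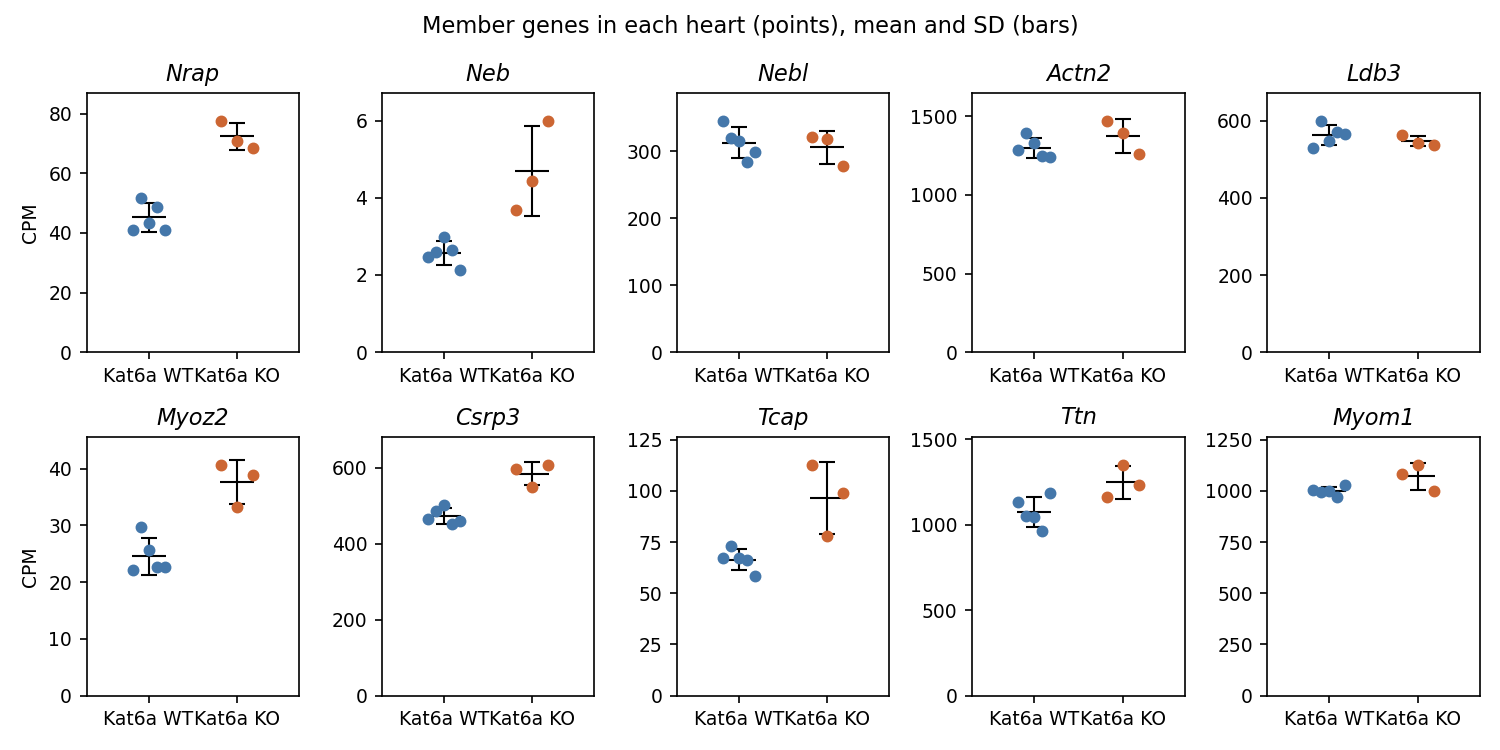
CPM of the 10 genes in each heart, from 0 upward, with points for single hearts (5 Kat6a WT, 3 Kat6a KO) and black bars for the mean and SD. The groups do not overlap for Nrap, Neb, Myoz2, Csrp3 and Tcap, and do for Nebl, Actn2, Ldb3, Ttn and Myom1.

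The nebulin family split. Nrap (Entrez 18175, chromosome 19 from 56320037 to 56390062 in mm10 coordinates) was measured in Kat6a WT replicates 1 to 5 at 41.1, 51.6, 43.4, 48.9 and 41.1 CPM, and in Kat6a KO replicates 1 to 3 at 77.5, 70.96 and 68.6 CPM. All later values follow that order. The lowest Kat6a KO heart for Nrap was well above its highest Kat6a WT heart, and it rose by 0.68 ± 0.07 (SE) on the log2 scale, or 1.60-fold. The call of Nrap held in every alternative analysis that was run, with log2 fold changes from 0.56 to 0.73.

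Neb (Entrez 17996, chromosome 2 from 52136640 to 52338798), the giant nebulin gene, had 2.47, 2.59, 2.99, 2.65 and 2.14 CPM in Kat6a WT against 3.68, 4.42 and 5.98 CPM in Kat6a KO. It rose by 0.86 ± 0.20 on the log2 scale from a low level, with only 53 to 133 counts per heart over the whole gene. The Kat6a KO hearts differed among themselves, replicate 3 being the highest and replicate 1 the lowest. Leaving out Kat6a KO replicate 2 or 3 ended the call of Neb, as did analysis without the 2 hearts that had Xist RNA, or with Xist RNA as a covariate.

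Nebl (Entrez 74103, chromosome 2 from 17342673 to 17734949), which encodes nebulette, the family member most abundant here, had 345, 320.1, 315, 284 and 299 CPM in Kat6a WT and 321, 319 and 278 CPM in Kat6a KO. Both groups covered nearly the same range, with a log2 fold change of -0.03 ± 0.06, whose sign turned without Kat6a WT replicate 1 or Kat6a KO replicate 3. The level of Nrap relative to Nebl within a heart was 0.119 to 0.172 in Kat6a WT, against 0.223 to 0.247 in Kat6a KO. Likewise Neb was 0.00715 to 0.00948 of Nebl in Kat6a WT, against 0.0115 to 0.0215 in Kat6a KO. Nrap and Neb had no overlap between the groups before this division either, so the ratios are a description. Lasp1, a further gene with nebulin repeats, named after its values were seen, had 89.9 ± 4.60 and 86.9 ± 1.91 CPM (log2 fold change -0.05 ± 0.05) and did not pass.

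Of the 5 Z-disc genes, Myoz2, Csrp3 and Tcap rose, and Actn2 and Ldb3 did not pass. Myoz2 (Entrez 59006, chromosome 3 from 123006206 to 123035003), whose product calsarcin tethers the phosphatase calcineurin to alpha-actinin, had 22.1, 29.8, 25.6, 22.6 and 22.7 CPM in Kat6a WT. In Kat6a KO it had 40.7, 33.3 and 38.96 CPM, all above the highest wild-type heart, replicate 2. It rose by 0.62 ± 0.10 on the log2 scale, or 1.53-fold.

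Csrp3 (Entrez 13009, chromosome 7 from 48830398 to 48848051) had 464, 487, 503, 453 and 461 CPM in Kat6a WT and 595, 549 and 608 CPM in Kat6a KO. The step was small but clear of the spread in both groups, 0.30 ± 0.05 on the log2 scale or 1.23-fold, and its call held in every alternative analysis that was run.

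Tcap (Entrez 21393, chromosome 11 from 98383811 to 98384953), the titin cap gene, had 67.1, 73.2, 67.2, 66.3 and 58.5 CPM in Kat6a WT against 113, 78.0 and 98.96 CPM in Kat6a KO. Kat6a KO replicate 2 lay just above the highest Kat6a WT heart, while the other 2 were well clear of it. It rose by 0.54 ± 0.11 on the log2 scale, and its call was the least stable of the 5: it was lost on leaving out any of Kat6a WT replicates 1, 3, 4 and 5 or Kat6a KO replicate 3, with Xist RNA as a covariate, without the Xist-positive hearts, or with no count filter.

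Actn2 (Entrez 11472, chromosome 13 from 12269426 to 12340732) had 1284, 1394, 1329, 1247 and 1239 CPM in Kat6a WT and 1469, 1394 and 1258 CPM in Kat6a KO, overlapping ranges with a log2 fold change of 0.08 ± 0.05. Ldb3 (Entrez 24131, chromosome 14 from 34526699 to 34590314) had 530.1, 599, 548, 572 and 565 CPM in Kat6a WT, and its 3 Kat6a KO values of 563, 541 and 538 CPM lay within that range. Its log2 fold change was -0.04 ± 0.05. Within single hearts, Myoz2 stood at 0.0172 to 0.0214 of Actn2 in Kat6a WT hearts, against 0.0239 to 0.0310 in Kat6a KO. Csrp3 stood at 0.349 to 0.378 and 0.394 to 0.483 of Actn2. Neither ratio overlapped between the groups, and neither gene did before the division. The share of all genes whose ratio to Actn2 did not overlap was not counted, so these ratios are a description. The ratio of Ldb3 to Actn2 did overlap, 0.412 to 0.459 against 0.383 to 0.428.

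Neither of the 2 genes of the titin and M-band scaffold passed the test. Ttn (Entrez 22138, chromosome 2 from 76703980 to 76982557) had 1135, 1051, 1044, 963 and 1189 CPM in Kat6a WT and 1164, 1352 and 1230.3 CPM in Kat6a KO. Kat6a KO replicate 1 lay below Kat6a WT replicate 5, the log2 fold change was 0.21 ± 0.06, and the gene did not pass; it did pass with DESeq2 and without Kat6a WT replicate 5. Myom1 (Entrez 17929, chromosome 17 from 71003332 to 71126856) had 1004, 995, 999.8, 971 and 1027 CPM in Kat6a WT and 1084, 1127 and 999 CPM in Kat6a KO, with a log2 fold change of 0.10 ± 0.05. The ratio of Tcap to Ttn overlapped between the groups, 0.0492 to 0.0696 in Kat6a WT, against 0.0577 to 0.0969 in Kat6a KO.

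The sum of cardiomyocyte markers was also higher in Kat6a KO. Its step was smaller than those of the members that rose and of Ttn (1.16-fold). It was larger than those of Actn2 (1.06-fold), Myom1 (1.07-fold), Nebl (0.978-fold) and Ldb3 (0.972-fold). The summed level of 15 cardiomyocyte markers, which include cardiac troponins, myosins and actin but no member, was 40872 to 44163 CPM in Kat6a WT, against 44767 to 48223 CPM in Kat6a KO, 1.09-fold higher (exact permutation test over hearts, two-sided, p = 0.0179, the smallest possible with 3 against 5; 0.0358 adjusted over 8 marker sums). Of the 15, 3 rose (Myl3, Tnni3 and Ryr2), none fell and 13 had a log2 fold change above 0, with a median of 0.13. Set against that sum in each heart, Nrap, Neb, Myoz2 and Csrp3 had all Kat6a KO values above all Kat6a WT values. The ratios of their means were 1.47, 1.69, 1.41 and 1.13. Tcap then overlapped (ratio 1.34), and all Kat6a KO values of Nebl lay below those of Kat6a WT (ratio 0.898). The share of all genes without overlap on this scale was not counted. The members were chosen with their differences known, so these ratios are a description.

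Scaling the libraries on these markers shifted the median of all genes by -0.12 and changed the calls over all genes from 217 higher and 186 lower to 131 higher and 1580 lower. On that scale the same 5 members were called higher, with log2 fold changes of 0.56 for Nrap, 0.75 for Neb, 0.50 for Myoz2, 0.42 for Tcap and 0.18 for Csrp3. Ldb3 became a call in the lower direction (-0.16), right at the threshold, and the signs of Actn2 (-0.04) and Myom1 (-0.03) turned.

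Because Neb is best known from skeletal muscle, markers of that tissue are given beside it; of 14, 5 passed the filter on low counts, 2 rose and 0 fell. The sum of 14 skeletal muscle markers was 29.8 to 33.6 CPM in Kat6a WT and, with Kat6a KO, 65.0 to 84.1 CPM (p = 0.0179 by the same exact permutation test; 0.0358 adjusted over 8 sums). The sum was 2.47-fold higher. Over only the 5 markers that passed the filter, the mean log2 CPM was higher by the equivalent of 1.52-fold. Nearly all of the sum came from the fast troponin genes Tnni2 and Tnnt3, the 2 markers that rose. The marker lists were chosen with earlier results of these data known. The p of this sum and that of the cardiomyocyte sum are therefore a description. Tnni2 rose from 18.7 ± 1.09 to 56.2 ± 7.40 CPM (adjusted p = 1.06e-10, edgeR). Tnnt3 had 10.1, 11.2, 9.51, 9.92 and 12.3 CPM in Kat6a WT and 22.3, 14.5 and 18.5 CPM in Kat6a KO. The other 12 markers, set apart because they were not called, summed to 1.48 to 2.26 CPM in Kat6a WT, against 1.84 to 2.80 CPM in Kat6a KO. The 7 regulators that define skeletal muscle and its precursors (Myf5, Myf6, Myod1, Myog, Pax3, Pax7 and Msc) did not exceed 0.242 CPM in any heart, and Myf5 and the fusion gene Mymk had 0 counts in all 8.

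Other contents of the hearts are given for the same comparison. Epicardial markers summed to 441 to 506 CPM in Kat6a WT, against 311 to 359 CPM in Kat6a KO, and 6 of 8 fell. Macrophage markers summed to 14.9 to 28.8 and 40.1 to 50.8 CPM, and 6 of 8 rose. Smooth muscle markers, 2 of 7 of which rose (Tagln and Cnn1), summed to 2858 to 3526 and 3512 to 3569 CPM. The sums of endothelial and red cell markers overlapped between the groups, with 2 of 8 rising and 1 falling in the endothelial list and 0 of 8 called in the other. A list of 12 early-response and heat shock genes that react to tissue handling summed to 475 CPM in Kat6a KO replicate 1 and to 242 to 299 CPM in the other 7 hearts, with 0 called in edgeR (1 at an unadjusted p under 0.05). Without Kat6a KO replicate 1 the same 5 members were called higher. The part of epicardial and macrophage content in the members' values was not tested.

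**Figure D3:**
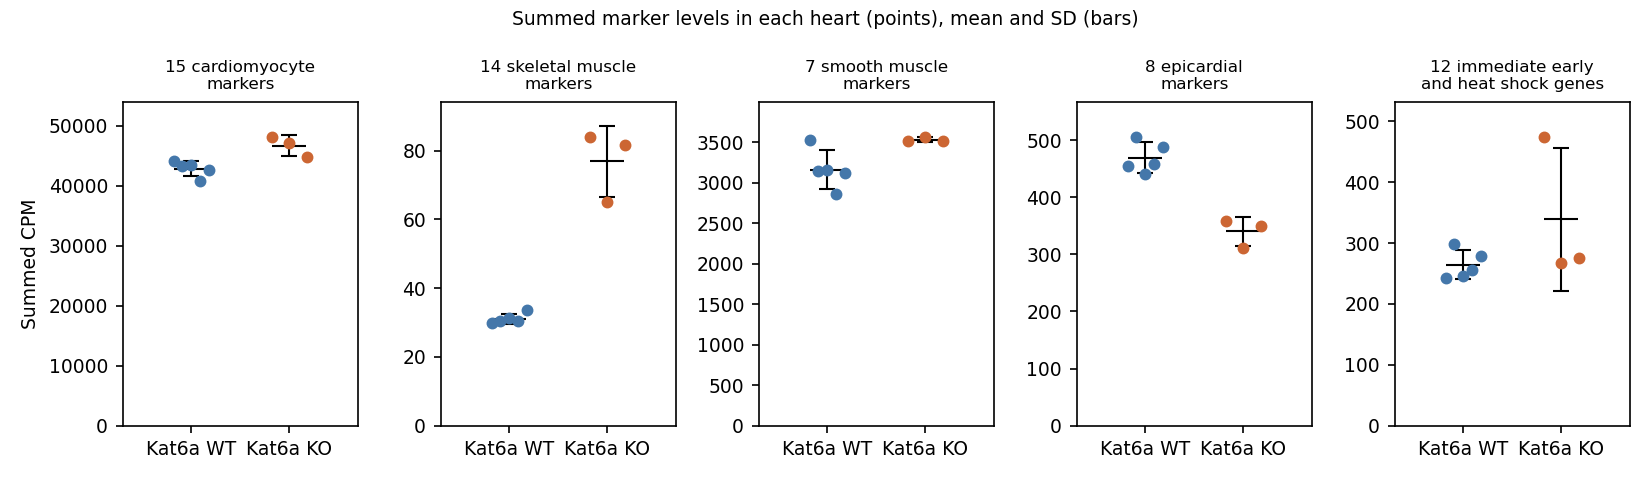
Summed CPM of 5 marker lists in each heart, from 0 upward, with points for single hearts (5 Kat6a WT, 3 Kat6a KO) and black bars for the mean and SD. Cardiomyocyte and skeletal muscle sums do not overlap between the groups, the epicardial sum is lower in Kat6a KO, and Kat6a KO replicate 1 stands high for early-response and heat shock genes (475 CPM).

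Kat6a WT replicates 4 and 5, the hearts with Xist RNA, were also the lowest wild-type hearts for some members. Nebl had 284 and 299 CPM there against 315 to 345 CPM in the other 3 Kat6a WT hearts, Actn2 1239 and 1247 against 1284 to 1394 CPM, Csrp3 453 and 461 against 464 to 503 CPM, and Tcap 58.5 and 66.3 against 67.1 to 73.2 CPM. The part of sex in the values was not tested in these 5 hearts. Without those 2 hearts 3 members rose (Nrap, Myoz2 and Csrp3), and none fell.

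Neighbouring genes of the sarcomere are given beside the members. Listed by function with the Z-disc, titin and thin filament were 72 other genes, which include regulators and junction proteins. Of these, 68 were tested, 4 rose, 3 fell and 61 did not pass (edgeR quasi-likelihood test, Benjamini-Hochberg over all genes). Over all genes tested, 1.44% rose, 1.23% fell and 2.67% were called in either direction. The lists were chosen with earlier results of these data known, so nothing is read from that contrast. The median log2 fold change of the 68 genes was 0.02, and 38 of 68 were above 0 (49.9% of all genes).

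**Figure D4:**
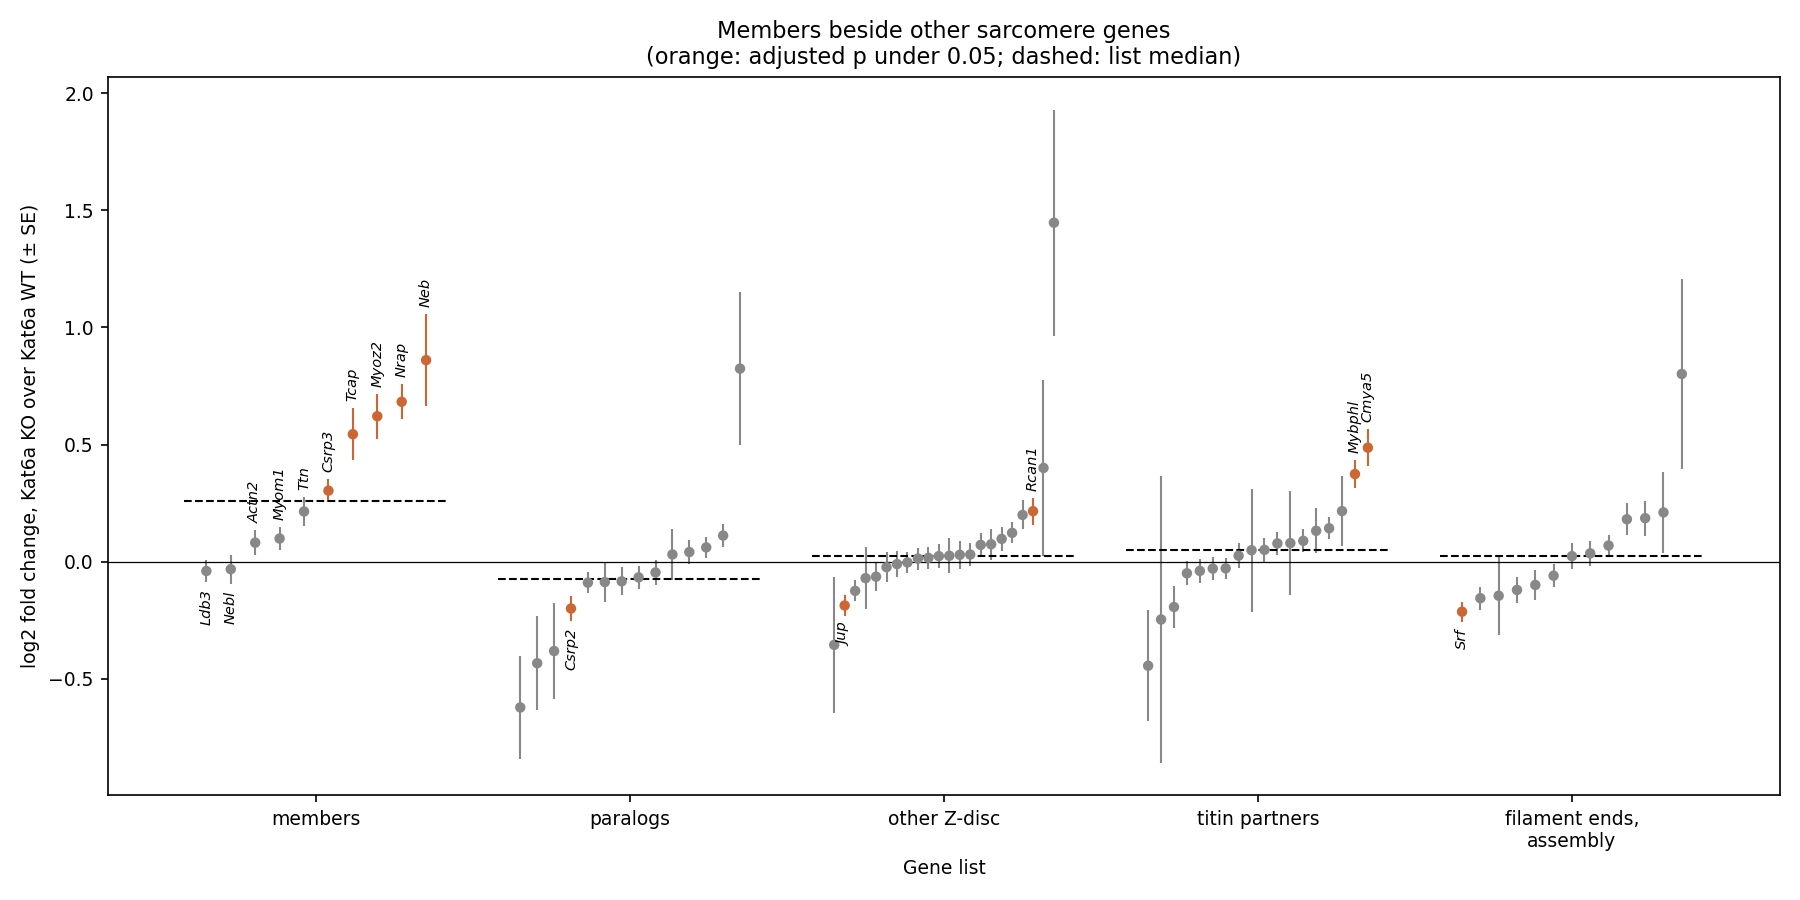
Log2 fold change of Kat6a KO over Kat6a WT with its SE for the 10 members and 4 lists of other sarcomere genes, each point a gene, orange where the adjusted p was under 0.05, and dashed lines for list medians; 1 titin partner is not plotted but counts toward its list's median. The members' median lies at 0.26, above those of the lists (-0.08, 0.02, 0.05 and 0.02); the members were chosen with these values known.

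Partners of titin supplied 3 of the 4 that rose, and 0 of 19 fell, near the 1.23% of all genes. Cmya5, whose product myospryn docks at the edge of the Z-disc, had 34.6, 39.6, 37.1, 40.4 and 46.2 CPM in Kat6a WT and 57.5, 58.0 and 50.7 CPM in Kat6a KO, a rise of 0.49 ± 0.08 (SE) on the log2 scale (adjusted p = 0.00154, edgeR). Mybphl, a relative of myosin-binding protein C, rose from 47.4 ± 3.11 to 61.5 ± 2.17 CPM (0.37 ± 0.06, adjusted p = 0.00129, edgeR). For Cmya5 and Mybphl the groups did not overlap and the call held in every alternative analysis that was run.

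Of 22 other genes listed with the Z-disc, which include regulators and junction proteins, 1 rose and 1 fell. Rcan1, an inhibitor of calcineurin, rose from 146 ± 8.58 to 169.7 ± 14.6 CPM (0.22 ± 0.06, adjusted p = 0.0486, edgeR), a call lost with scaling on cardiomyocyte markers, without the hearts that had Xist RNA, and on leaving out Kat6a WT replicate 1, 3, 4 or 5 or Kat6a KO replicate 1 or 3. Jup, which encodes the junction protein plakoglobin, fell by 0.19 ± 0.05 on the log2 scale, from 188 ± 7.26 to 165 ± 1.86 CPM (adjusted p = 0.0261, edgeR).

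Of 14 tested paralogs of the members, none rose, near the 1.44% of all genes, and 1 fell. Csrp2, the relative of Csrp3, fell by 0.20 ± 0.05, from 219.9 ± 11.1 to 191 ± 13.3 CPM (adjusted p = 0.0433, edgeR). Relatives that did not pass are named here after their values were seen. Csrp1, the third gene of that family, had 432 ± 25.9 and 444 ± 4.58 CPM and did not pass. In the Myoz2 family Myoz1 had 23.7 ± 2.20 and 22.3 ± 0.734 CPM (log2 fold change -0.09 ± 0.09) and did not pass, and Myoz3 was under the filter. Actn1 and Actn4, the non-muscle alpha-actinins, and Actn3, the fast skeletal form, did not pass either.

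Of 13 tested genes of filament ends and assembly, none rose, near the 1.44% of all genes, and 1 fell. That gene was Srf, encoding serum response factor, with 247, 234, 237, 238 and 237 CPM in Kat6a WT and 210.0, 209.5 and 198 CPM in Kat6a KO (-0.21 ± 0.04, adjusted p = 0.00708, edgeR). The calls of Csrp2 and Jup were both lost without the hearts that had Xist RNA, and on leaving out Kat6a WT replicate 3 or 4 or Kat6a KO replicate 1 or 2. Csrp2 also lost its call without Kat6a WT replicate 5, and Jup without Kat6a KO replicate 3.

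The average profile of the 10 members over the 8 hearts (log2 CPM centred on each gene's mean) ran from -0.19 in Kat6a WT replicate 5 to 0.24 in Kat6a KO replicate 1. The member nearest to it was Csrp3, with a root mean square difference of 0.0405, and the farthest was Neb, with 0.319. Of 9842 other genes whose average log2 CPM reached 3, the 5 nearest were Atp1b1 (0.0370), a subunit of the sodium pump, Sspn (0.0435), the gene of sarcospan at the muscle cell membrane, Gimap6 (0.0438), Galk1 (0.0438), encoding galactokinase, and Axl (0.0506), a receptor tyrosine kinase. Genes without a symbol, with a Gm or Rik symbol or on the sex chromosomes were left out of the 9842. The members' profile includes the difference between the genotypes and is a description of likeness over 8 hearts.

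Some members overlap other annotated genes, and whether the counting used strand is not known here. Nrap shares 784 bases with Habp2, which had 25 counts over all 8 hearts against 11163 for Nrap, and Neb spans 4930573O16Rik, which had 0. Nrap, Neb and Actn2 also overlap 1 further long non-coding RNA each. That RNA has no counts of its own among those deposited, and without a known strand setting its reads cannot be told apart from those of the member.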

How the data were processed

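RNA of 8 whole hearts was sequenced from TruSeq stranded libraries, per the labels' protocols. Reads were demultiplexed with bcl2fastq, and the authors deposited raw counts per Entrez gene made with featureCounts on mm10, per the submitters' processing notes. The aligner, annotation, versions and strand setting were not given in the sources used here. That table also holds a gene length in bases, per the file headers. The 8 files of single hearts hold the same counts as the deposited table. Symbols and positions come from RefSeq (GRCm38.p6), which named 25275 IDs and left 1904 without a symbol (1.05% of counts), kept under their IDs.

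Genes were filtered with filterByExpr, scaled by trimmed mean of M values and tested with the robust edgeR quasi-likelihood test over all 8 hearts without covariates, with Benjamini-Hochberg adjustment over 15086 genes and a threshold of 0.05 (edgeR 4.0.16 with limma 3.58.1 in R 4.3.3). Each SE was obtained by dividing the size of the log2 fold change by the root of the F statistic. The biological coefficient of variation between hearts was 9.10%. The gene test was tested on simulated data. Members and lists were chosen with earlier results of these data known. Named besides the members are up to 4 called genes per list and the 5 genes nearest the members' profile; 1 called gene is not reported here by name and stays in the counts. Alternatives were DESeq2 1.42.0, limma voom, other scalings, filters and covariates, a replicate block and leaving out hearts.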

Additional observations from a re-analysis of the deposited data

Results flagged for a closer look

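Among 24 sets of 5 Kat6a WT values checked for a heart far from the others (the named genes and 2 marker sums), 1 stood out, where chance flags about 1 in 20. Jup had 176 CPM in Kat6a WT replicate 1, against 189 CPM in the nearest heart, a gap of 0.725 of the whole range (critical value 0.71). No member was flagged. The 3 Kat6a KO hearts are too few for this check.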

How the results depend on the processing

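The 5 members called higher became 2 with a replicate block, 3 with Xist RNA as a covariate and 3 without the Xist-positive hearts, and ran from 3 to 5 on leaving out each heart. Replicates 4 and 5 exist only in Kat6a WT and are the Xist-positive hearts, so a replicate block gives them no part in the difference. The covariate is high only in those hearts. The block, the covariate and leaving those hearts out are therefore not 3 separate checks. The 0 called lower became 1 (Ldb3, right at the threshold) when scaled on cardiomyocyte markers. Of the other sarcomere genes, the 3 called lower became 16 on that scaling, 0 with a replicate block, 1 with Xist RNA as a covariate and 1 without the Xist-positive hearts, and ran from 1 to 3 on leaving out each heart; the 4 called higher stayed within 1.5 times. Signs turned for Nebl without Kat6a WT replicate 1 or Kat6a KO replicate 3 (range on leaving out each heart -0.068 to 0.027), and for Actn2 (-0.044) and Myom1 (-0.025) when scaled on cardiomyocyte markers. Over all genes the 403 calls became 1711 on that scaling, 181 with the block, 194 on leaving out Kat6a KO replicate 1, and 263 for replicate 3; the cause was not tested. Nothing in the labels pairs same-numbered hearts of the 2 groups. The deviations of such hearts correlated at 0.07, -0.12 and -0.05, too few values to tell whether they were paired. With the block, the calls of Nrap and Csrp3 were kept. The 2 marker sums were higher in Kat6a KO with DESeq2 size factors, as mean log2 CPM and on leaving out each heart; the other alternatives were not run for them, and as each p was the smallest its design allows, it does not measure stability. Of 396 values of named genes under alternatives, 334 kept direction and side. With 53 to 133 counts, depth limits Neb.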
